A study of Mus musculus with 12 samples.

Results

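Primary endothelial cells (ECs) of the adult mouse cortex were cultured with or without Wnt3a, a secreted Wnt ligand, and their mRNA was sequenced. The comparison rests on 5 of the 12 libraries of the series, 3 of adult control ECs (controls 1 to 3) and 2 of adult ECs given Wnt3a (Wnt3a 1 and Wnt3a 2). Of 21611 genes, 12590 were tested, those that reached a normalized count of 10 in 2 or more of these libraries. A normalized count is the number of reads on a gene divided by the size factor of its library. The other libraries are 3 of E13.5 cortical ECs and 4 of adult ECs treated with MS-275, an inhibitor of class I histone deacetylases, at 10 µM. All groups came from wild-type C57BL/6J mice. Per the methods, adult cells came from male mice aged 2 to 3 months, the cells of a single litter made 1 biological replicate, cultures were used at the second passage, and Wnt3a was given for 48 hours. The labels give the Wnt3a dose as 200 nM and the methods give 200 ng/ml, so the dose is uncertain, and no vehicle is named for the controls. Each library is a pool of animals, and cultured ECs lack the neural cells that surround vessels in the brain.

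Wnt ligands bind Frizzled receptors together with the coreceptors Lrp5 and Lrp6. This stops a cytoplasmic complex built on Axin and Apc from marking β-catenin for destruction, and β-catenin then enters the nucleus and activates genes with TCF and LEF proteins. In the developing brain, Wnt7a and Wnt7b from neural cells act on ECs in this way and drive vessel ingrowth and formation of the blood-brain barrier (BBB). The comparison asks which genes, Wnt targets and barrier genes among them, differ in adult ECs that were given a Wnt ligand.

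The cultures carried EC markers in every library. Over the 5 libraries the normalized count was 53472 to 81545 for Pecam1 (CD31), 55740.2 to 90276 for Cdh5 (VE-cadherin) and 14751 to 31566 for Kdr, a VEGF receptor. Genes of barrier ECs were unequal, since Cldn5, the main claudin of brain ECs, had 7832 to 33861, while Mfsd2a, a lipid transporter gene of the BBB, had 19.1, 24.4 and 0 in controls 1 to 3 and 16.7 and 0 in Wnt3a 1 and 2, and Foxf2, a transcription factor gene of brain vessels, had no read. The libraries held 26998907 to 31692256 reads on genes in the controls, 21116014 in Wnt3a 1 and 22351988 in Wnt3a 2.

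Many markers of other cell types were at or near 0, though some were not. The 11 neuron markers summed to 6.94 to 14.2 in the controls, 58.3 in Wnt3a 1 and 0 in Wnt3a 2, and Tubb3 made up 50.01 of the sum in Wnt3a 1. The 10 pericyte and smooth muscle markers summed to 96.3 to 125 in the controls, 115 in Wnt3a 1 and 130.1 in Wnt3a 2. Rgs5, Kcnj8 and Des were at 0. Tagln had 63.3, 66.1 and 64.1 in controls 1 to 3 and 50.01 and 53.7 in Wnt3a 1 and 2. Pdgfrb had 3.47, 12.2 and 13.8 against 19.4 and 26.3. The 13 markers of microglia and leukocytes summed to 7721 to 15070 in the controls, 12760 in Wnt3a 1 and 6900.2 in Wnt3a 2. Nearly all of it was Cd68, a lysosomal protein gene, while P2ry12, C1qa and C1qb had no read. Csf1r had 219, 213 and 108 in controls 1 to 3 and 144 and 117 in Wnt3a 1 and 2. Lyz2 had 30.4, 14.2 and 123 against 0 and 113. Fibroblast markers also had a higher sum in Wnt3a 1. The 10 markers summed to 217 to 343 in the controls, 647 in Wnt3a 1 and 312 in Wnt3a 2, with Lum at 0. Pdgfra, a PDGF receptor gene, carried the difference at 134, 157 and 241 against 550.1 and 223. Col1a1, a fibrillar collagen gene, was lower in both Wnt3a libraries at 20.8, 10.2 and 9.86 against 4.17 and 0, and Foxc1, a transcription factor gene of meninges, had 53.8, 44.7 and 72.96 against 55.6 and 74.02, with overlap. Nes, an intermediate filament gene of the neural progenitor list, had 4834, 4669 and 1825 against 12252 and 2331, highest in Wnt3a 1. The part of these markers in the results for Wnt3a 1 was not tested.

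The libraries did not group by treatment. Wnt3a 2 was close to control 3, with a Pearson correlation over the tested genes of 0.990 on the log2 scale and 334 genes (2.65%) more than 2-fold apart. Controls 1 and 2 were likewise close, at 0.991 and 356 genes (2.83%). The controls were not alike, since control 3 was more than 2-fold from control 1 in 2768 genes (21.99%) and from control 2 in 3206 (25.5%). Wnt3a 1 was nearest to control 1 (0.945, 2046 genes or 16.3%), and the 2 Wnt3a libraries were more than 2-fold apart in 2594 genes (20.6%). The chi-square between read counts was 9.01 per gene for control 3 with Wnt3a 2 and 10.3 for controls 1 and 2, so neither pair was taken for 1 library deposited in duplicate. Over the 9 adult libraries, each library's deviation from its group mean was taken, and the first principal component of these deviations took 62.7% of the variance. It put controls 1 and 2, Wnt3a 1 and MS-275 1 and 3 on one side, and control 3, Wnt3a 2 and MS-275 2 and 4 on the other. With only 2 Wnt3a libraries, their deviations are mirror images (-57.7 and 57.7 on this component), so these 2 had to fall on opposite sides. Wnt3a 1 was more than 2-fold from control 2 in 19.0% of genes and from control 3 in 20.8%, so no control was close to it. The labels name no batch, and what set the 2 sides apart was not tested.

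**Figure D1:**
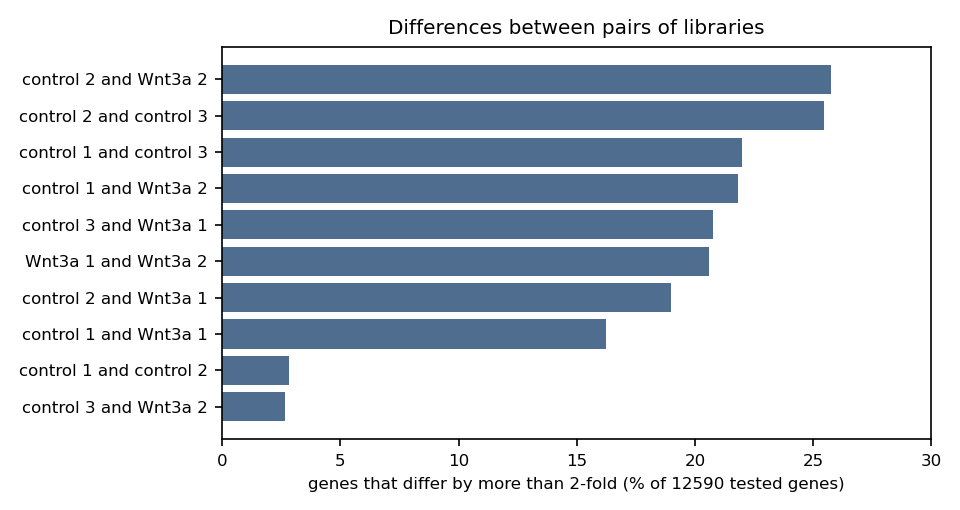
The bars give, for each of the 10 pairs of the 5 libraries, the share of the 12590 tested genes that were more than 2-fold apart in log2(normalized count + 1). Control 3 with Wnt3a 2 (2.65%) and control 1 with control 2 (2.83%) stand apart from the other pairs, which lie between 16.3% and 25.7%.

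No gene passed the test between Wnt3a and control ECs. The differences that were seen lay mostly in Wnt3a 1, where several Wnt targets and inflammatory genes were higher and many endothelial genes lower. With limma on log2(normalized count + 1), 0 genes were higher and 0 lower at an adjusted p under 0.05 (0% of 12590 in each direction). The smallest adjusted p was 0.458, that of Igdcc4, and 1090 genes (8.66%) had an unadjusted p under 0.05. The quasi-likelihood test of edgeR on the recovered reads also called 0 genes, with 1013 (8.05%) at an unadjusted p under 0.05. DESeq2 on the same reads called 23 genes higher (0.195% of the 11769 to which it gave an adjusted p) and 12 lower (0.102%), with adjusted p from 0.0105 to 0.0472, and 1275 genes (10.1%) had an unadjusted p under 0.05. The counts depended on single libraries. Without control 3, limma called 1014 genes higher and 592 lower. Without Wnt3a 2 it called 87 higher and 114 lower, the lone Wnt3a 1 being assumed to vary like the other groups. Without control 1, control 2 or Wnt3a 1 it called 0. The median standard error (SE) of a log2 fold change was 0.30.

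Each Wnt3a library was therefore also compared with the controls on its own side of that component, Wnt3a 1 with controls 1 and 2, and Wnt3a 2 with control 3. This was chosen after seeing the data and has no test, since each side holds 1 Wnt3a library. Wnt3a 1 was more than 2-fold above the mean of controls 1 and 2 in 1293 genes (10.3%) and below it in 858 (6.81%). Wnt3a 2 was more than 2-fold above control 3 in 155 genes (1.23%) and below it in 179 (1.42%). These shares are the background for the later counts of list members past 2-fold. The treated libraries thus stood at unequal distances from their controls, with a median absolute log2 difference of 0.41 in Wnt3a 1 and 0.11 in Wnt3a 2. Both passed 2-fold upward in 48 genes (0.381%) and downward in 36 (0.286%), and 72 genes passed it in opposite directions. The 84 genes with the same direction were 3.91% of the list of Wnt3a 1 and 25.1% of the list of Wnt3a 2. Over all tested genes, the differences of Wnt3a 1 and those of Wnt3a 2 had a Pearson correlation of only 0.076 (Spearman 0.073). With the side as a block, limma called 0 genes over the 9 adult libraries, where edgeR called 0 and DESeq2 called 78 higher and 41 lower.

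**Figure D2:**
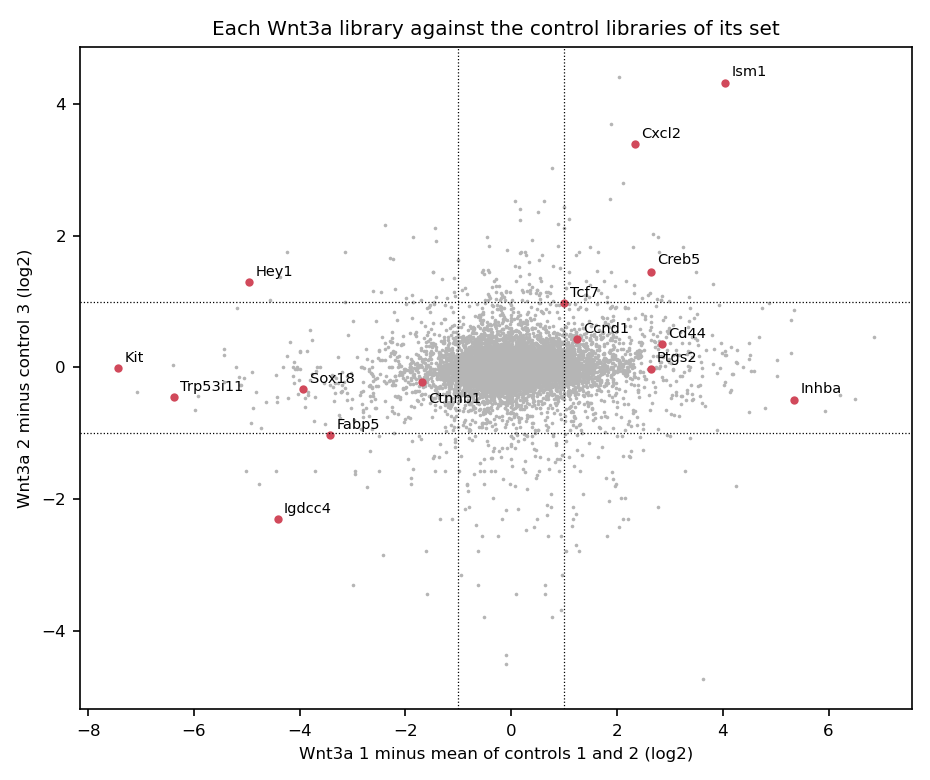
Each point is 1 of the 12590 tested genes. The x axis is Wnt3a 1 minus the mean of controls 1 and 2 and the y axis is Wnt3a 2 minus control 3, both in log2(normalized count + 1), and the dotted lines mark 2-fold. The cloud is wider along x (17.1% of genes past 2-fold) than along y (2.65%), and Ism1 and Creb5 are past 2-fold on both axes while Cd44 and Kit are so on the x axis alone.

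Genes for Wnt ligands were few in these cells. Of 20 genes for Wnt ligands and norrin, 5 were tested, 9 were below the minimum and 6 had no read, the gene of the added ligand, Wnt3a, among them. Wnt5a, best known for signaling without β-catenin, had 441, 389 and 465 in controls 1 to 3 and 378 and 409 in Wnt3a 1 and 2. The libraries overlapped, and the log2 fold change (Wnt3a minus control) was -0.13 ± 0.36 (SE, 3 controls and 2 Wnt3a libraries). Wnt7b had 12.1, 12.2 and 1.97 against 0 and 0, so neither Wnt3a library had a read, and control 3 had few. With 3 reads in each Wnt3a library as the floor, the Wnt3a mean was at least 2.26-fold below the mean of the 3 controls (adjusted p = 0.571 in limma). Control 3, at 1.97, lay below the floor of Wnt3a 2 (3.58), so no such bound holds for Wnt3a 2 against control 3. Wnt7a had a normalized count of 30.6 in Wnt3a 1 and no read in the other 4 libraries. Among R-spondins, which strengthen Wnt signaling, and their receptors, the receptor gene Lgr4 had 62.5, 79.3 and 86.8 against 140.3 and 111. Both Wnt3a libraries lay above all controls (log2 fold change 0.72 ± 0.23, adjusted p = 0.571 in limma).

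The receptors were present with and without Wnt3a. None of the 14 tested Frizzleds, coreceptors and partners passed the test, 2 of them were more than 2-fold lower in Wnt3a 1, and none passed 2-fold in Wnt3a 2. Fzd4, the receptor for norrin in vessels of the retina and brain, had 4946, 5002 and 8029 in controls 1 to 3 and 2023 and 7402 in Wnt3a 1 and 2. Wnt3a 1 was the lowest and Wnt3a 2 lay among the controls. Fzd9 had 809, 866 and 159 against 192 and 165, with control 3 at the low level of both Wnt3a libraries. Fzd6 had 416, 405 and 1578 against 239 and 1587, with control 3 and Wnt3a 2 high. The libraries overlapped in both genes. Lrp5, a coreceptor gene, had 6067, 6486 and 6595 against 3776 and 6673, lowest in Wnt3a 1. Its partner gene Lrp6 had 3349, 3291 and 4371 against 3581 and 4526, with overlap. Adgra2 (Gpr124) and Reck encode the surface proteins through which ECs of the brain receive Wnt7. Adgra2 had 2605, 2552 and 4554 against 3205 and 4952. Reck had 112, 155 and 307 against 197 and 273, and both genes were higher in control 3 and Wnt3a 2 than in the other libraries.

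β-catenin itself had less RNA in both Wnt3a libraries than in any control. Ctnnb1, its gene, lies on chromosome 9 of mm10 (120929216 to 120960507, + strand) and had 62278, 69209.5 and 34702 in controls 1 to 3 and 20374 and 29749.5 in Wnt3a 1 and 2. Control 3 lay nearer to Wnt3a 2 than to the other controls, and the difference on the log2 scale was -1.69 for Wnt3a 1 and -0.22 for Wnt3a 2 against the controls of their own side. The log2 fold change was -1.11 ± 0.26 (adjusted p = 0.571 in limma). DESeq2 called it lower with an adjusted p of 0.0255, and over its 21 alternatives the adjusted p ranged from 0.00256 to 1. Ulk4, on the opposite strand, shares 5157 bases with Ctnnb1 (120955351 to 120960507) and had 16705, 18437 and 11827 against 5969.5 and 9842. No source used here says whether counting used the strand, so reads of the shared bases cannot be told apart, and Ulk4 was also called by DESeq2.

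Of the 20 genes of β-catenin and its destruction complex, none passed limma, and the medians were near 0 in both libraries. In Wnt3a 1, Apc and Apc2 were more than 2-fold higher and Ctnnb1 and Dvl1 lower, where 17.1% of all tested genes passed 2-fold. Apc, a scaffold that binds β-catenin, had 2437, 2205 and 3760.5 against 5009.6 and 3389. Wnt3a 1 was the highest library and Wnt3a 2 lay below control 3. Axin1, the other scaffold, had 1574, 1682 and 1018 against 1592 and 1149.6, and Gsk3b, the kinase that marks β-catenin, had 5574, 5641 and 6339 against 7449 and 6379.7. Dvl1, which relays the signal from Frizzleds, had 1874, 2104 and 746 against 775 and 707, again with control 3 at the level of the Wnt3a libraries.

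Of 14 genes for TCF/LEF factors and their nuclear partners, 13 were tested and none passed. Tcf7, a TCF gene and Wnt target, had 6.94, 12.2 and 17.7 in controls 1 to 3 and 19.4 and 35.8 in Wnt3a 1 and 2. Both Wnt3a libraries were above all controls, at low levels (log2 fold change 1.13 ± 0.41, adjusted p = 0.571 in limma). Lef1 had 2 reads in control 2 and none in the other 4 libraries, whereas E13.5 ECs had normalized counts of 98.3 to 215. Tcf7l1, often a repressor, had 207, 177 and 543 against 250.1 and 455, and Tcf7l2, the main TCF gene of many adult tissues, had 449, 488 and 1131 against 457 and 1006. Control 3 and Wnt3a 2 were the high libraries in both. Ctnnbip1, whose product keeps β-catenin from TCF, had 664, 620.1 and 645 against 306 and 602 and was lowest in Wnt3a 1.

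Antagonists were as mixed. Of 25 genes, 9 were tested, 6 were below the minimum and 10 had no read. None passed limma, and 3 were more than 2-fold higher and 1 lower in Wnt3a 1, against 1 and 0 in Wnt3a 2. Kremen1, a receptor of Dickkopf proteins, had 976, 1013 and 756 against 659.9 and 671, with both Wnt3a libraries below all controls (log2 fold change -0.45 ± 0.17, adjusted p = 0.571 in limma). Draxin, a secreted guidance cue that binds Lrp6, had 16.5, 12.2 and 23.7 against 58.3 and 45.4, above all controls in both. Dkk2, a Dickkopf gene, had 64.2, 44.7 and 1554 against 22.2 and 1109, high in control 3 and Wnt3a 2. Of 12 planar polarity genes, which act without β-catenin, 10 were tested and none passed. Vangl2, a core gene of that pathway, had 347, 419 and 495 against 122 and 419 and was one of 2 that were more than 2-fold lower in Wnt3a 1, the other being Daam2.

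The first feedback target of the pathway stayed near the detection limit. Axin2, a feedback inhibitor, had 0, 0 and 2 reads in controls 1 to 3 and 4 and 6 reads in Wnt3a 1 and 2. Both Wnt3a libraries were above all controls, and the rate was 10.1 times that of the controls, with a 95% exact interval of 2.16 to 94.9 that covers counting error only. Axin2 was below the minimum for the test, and without that minimum limma gave a log2 fold change of 2.35 ± 1.03 (adjusted p = 0.587). E13.5 ECs had normalized counts of 249 to 404 for Axin2, where the Wnt3a libraries had 5.56 and 7.16.

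Several other targets were more than 2-fold higher in Wnt3a 1 than in its controls, and none passed 2-fold in Wnt3a 2. Of 31 target genes, 16 were tested, 7 were below the minimum and 8 had no read. None passed limma in either direction. In Wnt3a 1, 7 of the 16 were more than 2-fold higher and 0 lower than in controls 1 and 2, and in Wnt3a 2 none passed 2-fold. Over all tested genes, 10.3% were higher and 6.81% lower by that much in Wnt3a 1, and 2.65% passed 2-fold in Wnt3a 2. The median log2 difference was 0.96 in Wnt3a 1 and 0.10 in Wnt3a 2, where the medians over all tested genes were -0.02 and -0.00324. In Wnt3a 2, 11 of the 16 were above control 3 and 4 below, where 48.8% of all tested genes were above. Tcf7, given above and also on this list, was low and just short of 2-fold in both, at 0.998 and 0.974 within the sides. Cd44, the hyaluronan receptor, had 3099, 3264 and 2066 in controls 1 to 3 and 22976 and 2637 in Wnt3a 1 and 2. Wnt3a 1 alone was high, Wnt3a 2 lay among the controls, and the log2 fold change of 1.499 ± 0.75 (95% interval -0.16 to 3.16, adjusted p = 0.578 in limma) became -0.06 without Wnt3a 1.

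Ccnd1, the gene of cyclin D1, which starts the cell cycle, had 43094, 37869.5 and 37527 against 95058 and 50659. Here Wnt3a 2 also lay above every control, though by less than 2-fold. Ptgs2, the prostaglandin synthase COX-2, had 1557, 1494 and 882 against 9475 and 870.3. Sox9, a transcription factor gene, was scarce at 1.73, 12.2 and 0 against 38.9 and 0. Snai2, a repressor of epithelial genes, had 364, 317 and 216 against 1081 and 217. In these 3 genes Wnt3a 1 stood above all other libraries and Wnt3a 2 lay close to control 3. Jun, a subunit of AP-1, had 2746, 2411 and 866 against 6157 and 1092. Id2, an inhibitor of helix-loop-helix factors, had 264, 238 and 469 against 582 and 310.4, with overlap, and it completes the 7. Myc, a growth regulator, had 2771, 2727 and 745 against 2062 and 871. Apcdd1, a Wnt inhibitor of barrier vessels, had 144, 103 and 247 against 217 and 217, and the libraries of both groups overlapped in it as in Myc. Znrf3, a ligase gene that removes Frizzleds and is itself a target, had 318, 295 and 349 against 300.1 and 369.

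**Figure D3:**
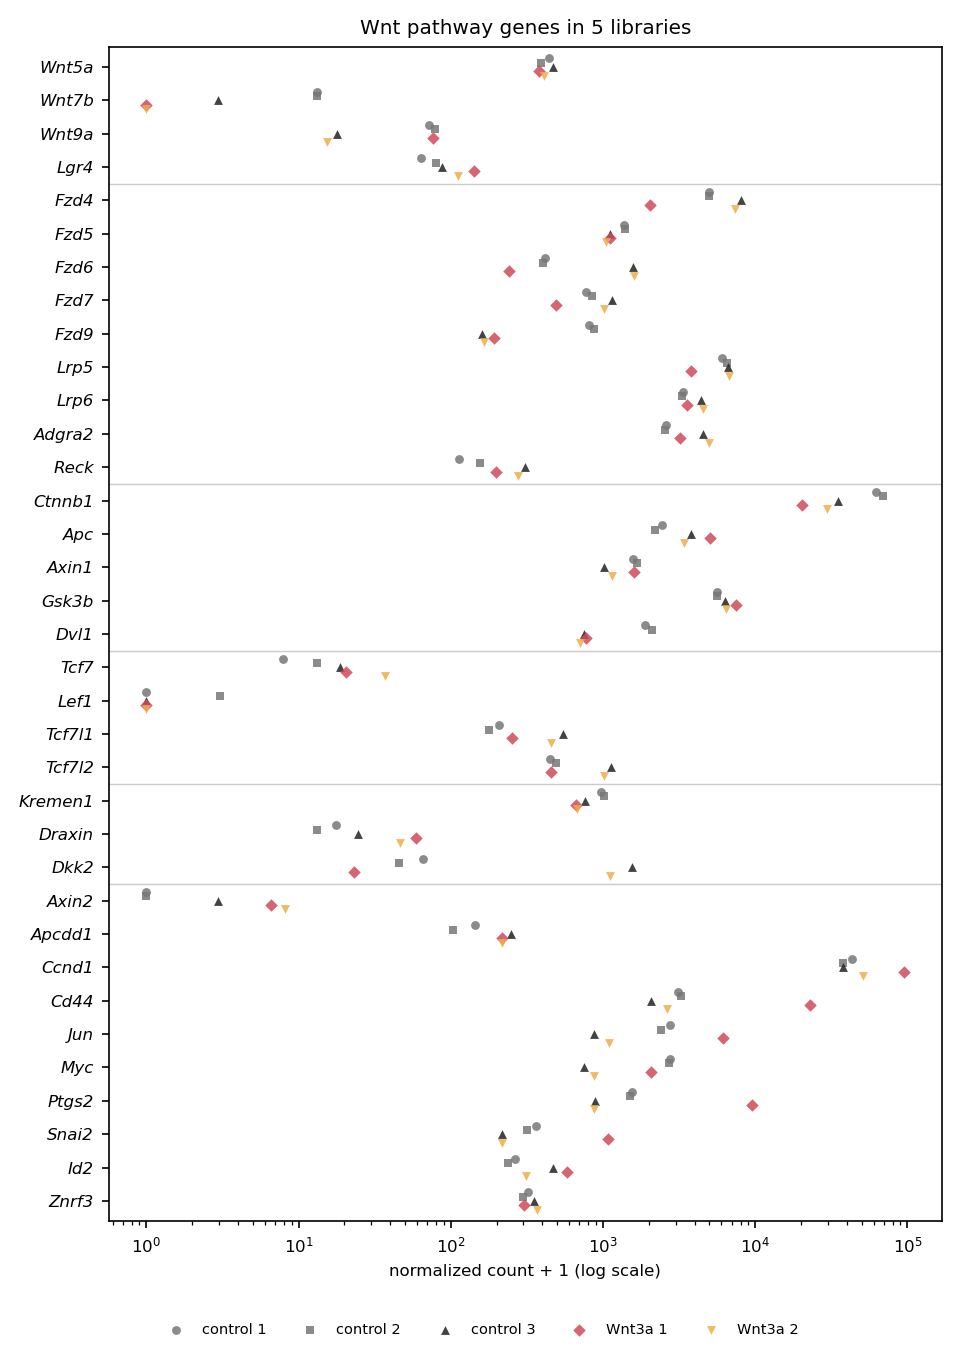
Normalized count + 1 on a log axis for Wnt pathway genes, in rows grouped from ligands and Lgr4 through receptors, the destruction complex, TCF/LEF genes and antagonists to targets, with 1 marker for each of the 5 libraries. Wnt3a 1 stands to the right of the other libraries in Cd44, Ptgs2, Jun and Snai2, both Wnt3a libraries are left of the controls in Ctnnb1, and Axin2 and Lef1 stay near the left edge.

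Promoter windows are shown for the genes these results turn on, with core sites of TCF/LEF proteins, CTTTGAT or CTTTGTT on either strand, in capitals. The windows run from 250 bases before to 50 bases after a RefSeq start on GRCm38.p6, and 807 of the 12552 windows of tested genes (6.43%) hold such a site. Axin2 and Lef1 are shown as targets that stayed near 0 and Cd44 as the target with the largest difference in Wnt3a 1. Sp5 is shown as a target with sites that had at most 2.78 in the 5 libraries, and Fez1 as a gene with a site among those of smallest p. The windows are Axin2 chr11:108920099-108920398 on the + strand, Lef1 chr3:131110047-131110346 (+), the first of 4 windows of that gene, Cd44 chr2:102901616-102901915 (-), Sp5 chr2:70474673-70474972 (+) and Fez1 chr9:36832490-36832789 (+), 1 of 3 windows.
Axin2: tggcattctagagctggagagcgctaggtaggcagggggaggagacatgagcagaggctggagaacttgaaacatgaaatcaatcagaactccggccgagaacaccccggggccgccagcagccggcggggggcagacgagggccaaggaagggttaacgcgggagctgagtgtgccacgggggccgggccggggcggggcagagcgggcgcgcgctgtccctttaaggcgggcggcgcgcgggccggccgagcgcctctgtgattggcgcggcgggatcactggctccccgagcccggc
Lef1: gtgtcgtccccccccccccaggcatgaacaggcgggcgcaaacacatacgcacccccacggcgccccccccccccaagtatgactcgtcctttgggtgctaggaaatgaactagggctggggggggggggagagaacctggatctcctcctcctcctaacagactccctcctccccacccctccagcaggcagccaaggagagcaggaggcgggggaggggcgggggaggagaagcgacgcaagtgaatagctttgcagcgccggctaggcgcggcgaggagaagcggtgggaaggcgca
Cd44: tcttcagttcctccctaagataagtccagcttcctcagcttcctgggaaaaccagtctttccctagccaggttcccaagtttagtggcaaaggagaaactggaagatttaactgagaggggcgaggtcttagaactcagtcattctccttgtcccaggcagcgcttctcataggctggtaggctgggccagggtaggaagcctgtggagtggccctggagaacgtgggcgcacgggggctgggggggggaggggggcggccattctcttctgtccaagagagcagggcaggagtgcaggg
Sp5: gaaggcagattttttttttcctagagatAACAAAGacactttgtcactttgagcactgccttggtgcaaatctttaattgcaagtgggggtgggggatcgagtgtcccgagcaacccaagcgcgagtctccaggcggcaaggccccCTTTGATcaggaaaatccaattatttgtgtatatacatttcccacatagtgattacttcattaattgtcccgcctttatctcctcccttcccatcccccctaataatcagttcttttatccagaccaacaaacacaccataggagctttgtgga
Fez1: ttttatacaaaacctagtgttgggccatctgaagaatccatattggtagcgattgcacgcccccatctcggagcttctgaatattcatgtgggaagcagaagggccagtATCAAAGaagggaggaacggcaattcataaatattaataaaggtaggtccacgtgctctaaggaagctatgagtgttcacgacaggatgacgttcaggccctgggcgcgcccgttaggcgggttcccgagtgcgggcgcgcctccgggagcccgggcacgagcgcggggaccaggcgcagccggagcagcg
The windows of Axin2, Lef1 and Cd44 hold neither sequence, that of Sp5 holds 2 matches and that of Fez1 holds 1. Of the 31 target genes, 19 matched by symbol with 27 windows, of which 5 held a match, those of Sp5, Tnfrsf19, Dkk1 and 2 of Mmp7. Sp5 and Tnfrsf19 were below the minimum for the test, and Dkk1 and Mmp7 had no read. Of the 12 genes of smallest p, 10 matched with 15 windows, of which 2 held a match, those of Fez1 and Ulk4. A match is a description of these letters and not a site shown to be bound.

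The 6 genes of smallest p on the higher side were Synm, Fez1, Lnpk, Creb5, Thbs1 and Gpr161, given here as values. Synm, the gene of the intermediate filament protein synemin, had 40.8, 54.9 and 128 in controls 1 to 3 and 319.5 and 246 in Wnt3a 1 and 2. Thbs1, the gene of the angiogenesis inhibitor thrombospondin 1, had 234, 173 and 406 against 1471 and 667. Creb5, a transcription factor gene of the CREB family, had 26.02, 20.3 and 25.6 against 149 and 71.6. Each Wnt3a library lay above each control in these genes, and in Creb5 the 3 controls were also close to each other. The log2 fold change was 2.07 ± 0.41 for Synm, 1.96 ± 0.44 for Thbs1 and 2.07 ± 0.45 for Creb5, with an adjusted p of 0.571 for each in limma. Fez1, an adaptor of kinesin motors, had 85.01, 65.1 and 229 against 595 and 347. Lnpk, which shapes the endoplasmic reticulum, had 118, 109.8 and 226 against 386 and 353. Gpr161, a receptor gene of primary cilia, had 29.5, 24.4 and 77.9 against 174 and 119. In all but Creb5, control 3 was the highest control.

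On the lower side they were Igdcc4, Ets2, Sgsm1, Ulk4, Tmem252 and Wnt7b. Ets2, an ETS transcription factor gene, had 20404, 21641 and 14515 in controls 1 to 3 and 4904 and 10584 in Wnt3a 1 and 2. Both Wnt3a libraries lay below all controls (log2 fold change -1.37 ± 0.28, adjusted p = 0.571 in limma). Tmem252, a membrane protein gene, had 8702, 9437 and 3369 against 1054 and 2380.4. Sgsm1, a regulator of small GTPases, had 910.0, 1188 and 379 against 165 and 265. In Ets2, Tmem252 and Sgsm1, control 3 was the lowest control and Wnt3a 1 the lowest library. Igdcc4, a gene of an immunoglobulin family membrane protein, was scarce at 22.6, 18.3 and 15.8 against 0 and 2.39.

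The calls of DESeq2 lay mostly among genes whose groups did not overlap. DESeq2 picked these genes for a difference between the same groups, so lack of overlap and a shared direction are no separate support. Both Wnt3a libraries were above all 3 controls in 951 genes (7.55%) and below all 3 in 1195 (9.49%), and this held for 34 of the 35 called genes, the exception being Fabp5. All 35 had the same direction in both libraries against the controls of their side, 34 of them with the larger difference in Wnt3a 1, and 4 passed 2-fold in both, namely Creb5, Ism1, Fabp5 and Ccdc63. Cyp26b1, an enzyme that degrades retinoic acid, had 19.1, 16.3 and 33.5 against 543 and 66.9. Edn1, the vasoconstrictor endothelin 1, had 5.205, 4.07 and 23.7 against 125 and 31.04. Their controls were low, and against the controls of its side Wnt3a 1 was higher by 4.87 and 4.49 on the log2 scale and Wnt3a 2 by 0.97 and 0.38. Trp53i11, a gene induced by p53, had 3016, 3664 and 292 against 38.9 and 214, with control 3 nearer to Wnt3a 2 than to the other controls. These genes and the next were chosen after their values were seen.

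Of the 84 genes past 2-fold in the same direction in both libraries, 26 reached a normalized count of 100 in some library, 18 of them higher and 8 lower. Ism1, the gene of isthmin 1, a secreted angiogenesis inhibitor, had 4.34, 9.15 and 0 in controls 1 to 3 and 121 and 19.1 in Wnt3a 1 and 2. Both Wnt3a libraries were above all controls, by 4.05 and 4.33 on the log2 scale within the sides (overall 3.71 ± 0.93, adjusted p = 0.571 in limma). Fam20c, a kinase gene of the secretory pathway, had 44.2, 44.7 and 43.4 against 176 and 104. Rgs16, a brake on G protein signaling, had 161, 171 and 83.8 against 561 and 210.1. Neither of them overlapped between groups. Phlda1, a stress-responsive gene, had 698, 571 and 279 against 4296 and 574, with Wnt3a 2 below control 1. Cxcl2, a neutrophil chemokine gene, had 121, 113 and 0 against 597 and 9.55, near 0 in control 3 and Wnt3a 2. Of the lower genes, Fabp5, a fatty acid binding protein gene, had 16159, 20204 and 1483 against 1689 and 723, with Wnt3a 1 above control 3. Rnf128, a ubiquitin ligase gene, had 143, 148 and 73.9 against 38.9 and 33.4, without overlap. Hist1h2bq and Hist1h2br are also among the 26, and as near-identical histone genes they may share reads.

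Most endothelial identity genes were lower in Wnt3a 1 than in controls 1 and 2, and near control 3 in Wnt3a 2. None of the 26 passed limma. In Wnt3a 1, 5 were above and 21 below controls 1 and 2, and 8 were more than 2-fold lower and 1 higher. Over all tested genes, 6.81% were lower and 10.3% higher by that much. In Wnt3a 2, 0 passed 2-fold, where 2.65% of all tested genes did. The medians were -0.58 in Wnt3a 1 and -0.04 in Wnt3a 2. Rasip1, needed for vessel lumens, had 5385, 5723 and 5194 in controls 1 to 3 and 1203 and 4762 in Wnt3a 1 and 2. Tek, the receptor for angiopoietins (Tie2), had 5349, 5643 and 2383 against 1282 and 2259.9. Ramp2, a partner of the adrenomedullin receptor, had 7791, 7846 and 9042 against 3744 and 8343. Wnt3a 1 was the lowest library in all 3 genes. Vwf, von Willebrand factor, was the gene that passed 2-fold upward in Wnt3a 1, at 116, 78.3 and 1369.5 against 2328 and 1317. In it control 3 and both Wnt3a libraries were above controls 1 and 2. In such bulk samples, fewer cells of a type and less RNA per cell cannot be told apart. Some other genes of this list, chosen after their values were seen, also had Wnt3a 1 lowest. In contrast, 5 of the 26, Vwf and Erg among them, were above controls 1 and 2 in it. Flt1, the VEGF receptor 1, had 5205, 5841 and 6629 against 1367 and 6487. Tie1, a receptor related to Tek, had 24009.9, 26187 and 15218 against 7179.6 and 14819. Clec14a, a surface lectin of ECs, had 2812, 2708 and 5163 against 426 and 3088, and in each of them Wnt3a 1 was the lowest.

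Endothelial transcription factors were similar. Of 24 tested, none passed limma, 7 were more than 2-fold lower and 1 higher in Wnt3a 1, and 0 passed 2-fold in Wnt3a 2 (medians -0.36 and 0.04). The shares over all tested genes were 6.81% lower and 10.3% higher in Wnt3a 1 and 2.65% in Wnt3a 2. Sox17, a SoxF factor gene, had 2471, 2782 and 2343 against 500.1 and 2841. Sox18, its relative, had 2039, 1977 and 2563 against 131 and 2031. Lmo2, a partner of Tal1, had 2696, 3134 and 2203 against 95.9 and 2109. In each, Wnt3a 2 lay near the controls while Wnt3a 1 was far lower. Lyl1, a gene related to Tal1, had 569.9, 496 and 229 against 158 and 252. Erg, a defining ETS factor of ECs that is counted in the identity list, was also named after its values were seen. It had 13086, 14154 and 12748 against 15234 and 11613, highest in Wnt3a 1. Kit, a receptor tyrosine kinase gene chosen after its values were seen, had 633, 669 and 521 against 2.78 and 518 and was near 0 in Wnt3a 1 alone. In the fit with both Wnt3a libraries, limma called none of these genes.

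Tight junction and adhesion genes had no common direction. Of 25 tested, none passed limma, and 6 were more than 2-fold higher and 5 lower in Wnt3a 1, where 10.3% and 6.81% of all tested genes were. In Wnt3a 2 only Tjp3, named after its values were seen, passed 2-fold, at 7.81, 18.3 and 8.87 against 11.1 and 1.19. Cldn5 had 31200.3, 33861 and 8340.3 in controls 1 to 3 and 7832 and 7963 in Wnt3a 1 and 2. Control 3 and both Wnt3a libraries were alike and well below controls 1 and 2, so the log2 fold change of -1.39 ± 0.76 (adjusted p = 0.593 in limma) did not exceed the spread between controls. Ocln, occludin, had 177, 141 and 666 against 25.01 and 609. Tjp1, the scaffold ZO-1, had 13683, 11661 and 29041 against 8326 and 25666. Both were lowest in Wnt3a 1 and high in control 3 and Wnt3a 2. Cldn12, a further claudin gene, had 802, 817 and 1011 against 1141 and 1263, above all controls in both Wnt3a libraries. Nectin3, an adhesion gene, had 539.6, 508 and 446 against 1519.8 and 583, highest in Wnt3a 1. Cldn1, another claudin gene, had at most 8.34 in the 5 libraries.

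Of 21 tested BBB transporters, none passed limma, 2 were more than 2-fold higher and 3 lower in Wnt3a 1, and none passed 2-fold in Wnt3a 2. Over all tested genes, 10.3% were higher and 6.81% lower by that much in Wnt3a 1, and counts this small cannot be set apart from these shares. Slc2a1, the glucose transporter of the barrier, had 3252, 3476 and 1789 against 5364 and 1681. Abcc4, an efflux pump gene, had 4296, 4457 and 2734 against 1856 and 2389, below all controls in both Wnt3a libraries. Abcb1a, a gene of the efflux pump P-glycoprotein, had 143, 124 and 110.4 against 564 and 134. Its close copy Abcb1b had 1309, 1062 and 1258 against 2629.8 and 1368, and reads of the copies may be shared. Wnt3a 1 was the highest library in Slc2a1, Abcb1a and Abcb1b. Of 12 genes of caveolae, fenestrae and transcytosis, 1 was more than 2-fold higher and 1 lower in Wnt3a 1, near the shares over all genes. Plvap, the diaphragm protein of leaky vessels, had 6506, 5893 and 5594 against 1900.5 and 4203, with both Wnt3a libraries below all controls (log2 fold change -1.08 ± 0.59, adjusted p = 0.593 in limma). Cav1, caveolin 1, had 15433, 12649 and 34123 against 24719 and 36629, with overlap.

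**Figure D4:**
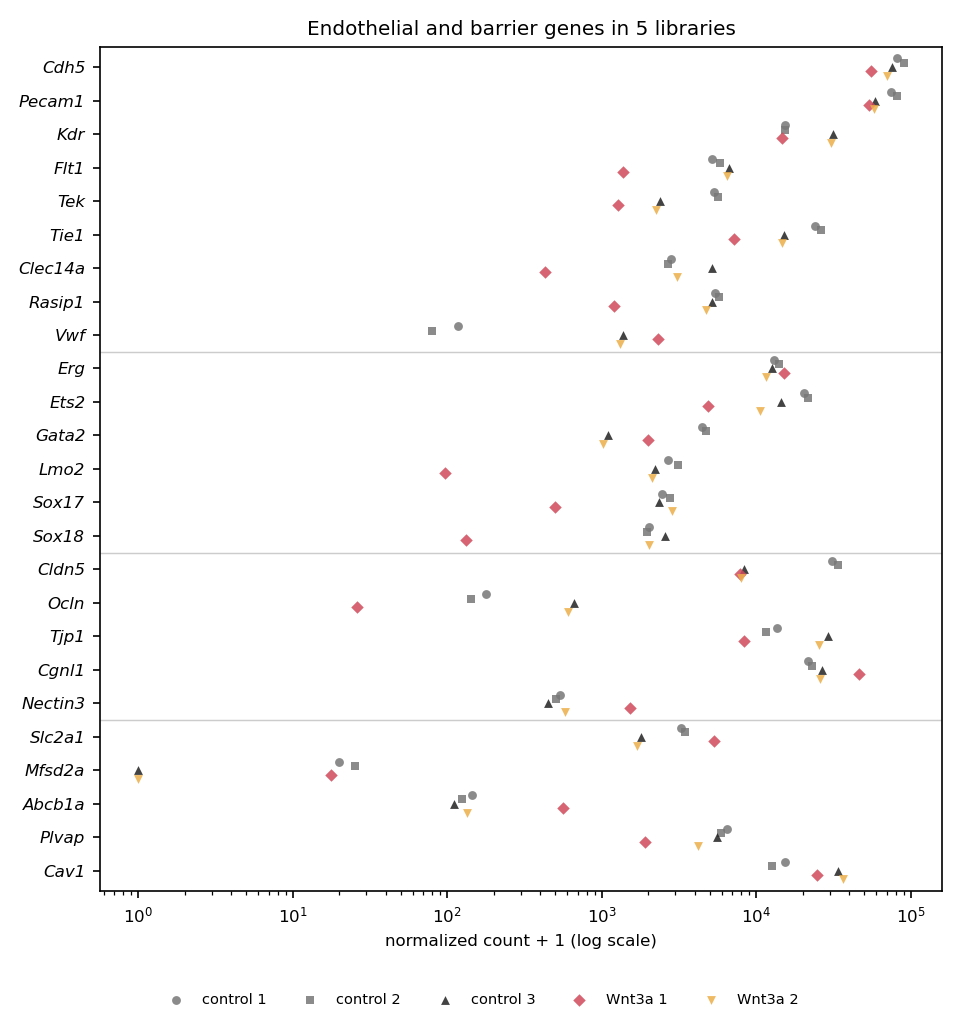
Normalized count + 1 on a log axis for genes of EC identity, EC transcription factors, junctions, and transport, from top to bottom, with 1 marker for each of the 5 libraries. Wnt3a 1 lies left of all other libraries in Flt1, Clec14a, Rasip1, Lmo2, Sox17, Sox18 and Ocln, while Wnt3a 2 lies near control 3 in most rows.

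Angiogenic, TGF-β and matrix genes included large differences in Wnt3a 1. Of 25 angiogenesis genes, 5 were more than 2-fold higher and 3 lower in it. None passed limma, and DESeq2 called 2 higher, Thbs1 among them, where it called 0.195% of 11769 genes higher. For all lists of this paragraph, the shares past 2-fold over all tested genes were 10.3% higher and 6.81% lower in Wnt3a 1. In Wnt3a 2 they were 1.23% and 1.42%. Cxcl12, a chemokine gene that guides vessels, had 1644, 1354 and 2954 in controls 1 to 3 and 6432 and 3814 in Wnt3a 1 and 2. Pdgfa, a PDGF ligand gene, had 550.0, 491 and 1439.5 against 1484 and 1489.9. Both Wnt3a libraries were above all controls in each, with control 3 above controls 1 and 2. Vegfa, the main growth factor of ECs, had 547, 587 and 331 against 971 and 352, high in Wnt3a 1. Of 23 BMP and TGF-β genes, 7 were more than 2-fold higher and 2 lower in Wnt3a 1, and 0 passed 2-fold in Wnt3a 2. Ltbp1, which anchors latent TGF-β in the matrix, had 429, 322 and 2669 against 4261 and 3572. Smad1, which carries BMP signals, had 5302, 5584 and 2692 against 1466 and 2554. Inhba, the activin A subunit, chosen after its values were seen, had 25.2, 40.7 and 13.8 against 1346 and 9.55. In Inhba no control was high, whereas in Ltbp1 and Smad1 control 3 lay nearer to Wnt3a 2 than to controls 1 and 2. Of 27 matrix genes, 8 were more than 2-fold higher and 5 lower in Wnt3a 1, and 2 and 2 in Wnt3a 2. Fn1, fibronectin, had 4220.2, 3723 and 12706 against 32969 and 14538 (log2 fold change 1.91 ± 0.51, adjusted p = 0.571 in limma), above all controls in both. Col8a1, a collagen gene of vessels, had 19.1, 14.2 and 4019 against 567 and 4329, high in control 3 and Wnt3a 2.

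In Wnt3a 1, 6 of 17 Notch genes and 2 of 6 venous and lymphatic genes were above controls 1 and 2, where 48.1% of all tested genes were. Of the 17 Notch genes, 2 were more than 2-fold higher and 6 lower in Wnt3a 1, and 2 were higher in Wnt3a 2. Over all tested genes, 10.3% were higher and 6.81% lower by that much in Wnt3a 1, and 1.23% higher in Wnt3a 2. Mfng, which modifies Notch receptors, had 4541, 4705 and 2315 against 1089 and 2349. Nrarp, a feedback gene of Notch, had 6746, 6062 and 5386 against 3176 and 5372. Rbpj, the nuclear effector of Notch, had 2856, 2629 and 2041 against 6227 and 2391. Mfng and Nrarp were lowest and Rbpj highest in Wnt3a 1. Of the 6 tested venous and lymphatic genes, 3 were more than 2-fold lower and 1 higher in Wnt3a 1, with a median of -0.81, against -0.22 in Wnt3a 2. Stab1, a scavenger receptor gene, had 16672, 19779.5 and 11548 against 2214 and 10860.0. Ephb4, a venous receptor gene, had 8240.1, 8277 and 8270.3 against 3533 and 7534. Nr2f2, which sets venous identity, had 4189.9, 4083 and 3468 against 3139.7 and 2822, and all 3 were below every control in both Wnt3a libraries.

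Of the function and Wnt lists, inflammation and adhesion genes had the highest median in Wnt3a 1. Of 22 tested, 11 were more than 2-fold higher and 0 lower in it (median 0.97), against 3 higher and 1 lower in Wnt3a 2 (median 0.13), and none passed limma. For all lists of this paragraph, the shares over all tested genes were 10.3% higher and 6.81% lower in Wnt3a 1. In Wnt3a 2 they were 1.23% and 1.42%. Tnfaip3, a brake on NF-κB, had 444, 490.0 and 245 in controls 1 to 3 and 3297 and 355 in Wnt3a 1 and 2. Csf1, a growth factor gene of macrophages, had 549, 462 and 606 against 1142 and 651. Cx3cl1, the chemokine fractalkine, had 76.3, 73.2 and 138 against 140.3 and 184. Tnfaip3 and Csf1 were highest in Wnt3a 1, and in Csf1 and Cx3cl1 both Wnt3a libraries were above all controls. Icam1, an adhesion gene of activated ECs, was low throughout at 1.73, 0 and 25.6 against 29.2 and 23.9. Interferon response genes went otherwise, with 3 more than 2-fold higher and 8 lower of 22 in Wnt3a 1 (median -0.62), and 2 higher in Wnt3a 2 (median 0.07). Ifit2, an antiviral gene, had 71.1, 52.9 and 610.3 against 632 and 622. Bst2, tetherin, had 2943, 3116 and 1806 against 1291 and 1849. Irf9, a transcription factor gene of interferon signaling, had 867, 955 and 522 against 435 and 591. In Ifit2 control 3 was level with both Wnt3a libraries, and in Bst2 and Irf9 the groups overlapped, with Wnt3a 1 lowest. Of 8 antigen presentation genes, 2 were more than 2-fold lower in Wnt3a 1, and Tap2, a peptide transporter gene, had 173, 236 and 184 against 50.01 and 141.

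Stress and growth control lists had medians near 0 in Wnt3a 1, with some members far apart. Of 21 CDK inhibitors and p53 targets, 7 were more than 2-fold higher and 1 lower in it (median 0.12), where 10.3% and 6.81% of all tested genes were. Mdm2, the ligase that holds p53 down, had 6981, 6457 and 8532 against 27401 and 8212. Gadd45a, a growth arrest gene, had 147, 136 and 218 against 671 and 261. Ccng1, a p53 target gene, had 6804, 5677 and 18715 against 26752 and 17710.0. Wnt3a 1 was the highest library in each, and Wnt3a 2 lay near control 3. Of 19 immediate early genes, 5 were more than 2-fold higher and 3 lower in Wnt3a 1 (median -0.04). Btg2, an antiproliferative gene, had 4444, 5169 and 4453 against 1634 and 3297. Dusp6, a brake on ERK, had 11012, 11083 and 10345 against 4932 and 9173. Both Wnt3a libraries were below all controls in both genes. Of 20 genes of the unfolded protein response, 3 were more than 2-fold higher and 2 lower in Wnt3a 1 (median -0.03), near the shares over all genes, and Hsp90b1, a chaperone gene, had 21718, 18172 and 35143 against 40285 and 36914.

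Glycolysis genes were higher in Wnt3a 1 without exception. All 22 hypoxia and glycolysis genes were above controls 1 and 2 in it, where 48.1% of all tested genes were, 6 of them by more than 2-fold (median 0.77), and 15 of 22 were above control 3 in Wnt3a 2 (median 0.03). Bnip3, a mitophagy gene induced by hypoxia, had 473, 416 and 316 in controls 1 to 3 and 2112 and 362 in Wnt3a 1 and 2. Pfkp, a phosphofructokinase gene, had 1816, 1891 and 1303 against 4540.0 and 1361. Pkm, pyruvate kinase, had 83314, 89049 and 52599 against 101856 and 48918. Wnt3a 1 was the highest in all 3 genes, and Wnt3a 2 lay among or below the controls. Cholesterol synthesis genes followed the sides, and 21 of 21 were lower in control 3 and Wnt3a 2 than in each of the other 3 libraries. Within the sides, 17 of 21 were above controls 1 and 2 in Wnt3a 1 (median 0.37). In Wnt3a 2, 18 of 21 were above control 3 (median 0.17), where 48.8% of all tested genes were. Hmgcs1, an early enzyme, had 6177, 5794 and 1641 against 14492 and 1841.

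Among the function and Wnt lists, cell division genes had the highest median in Wnt3a 2. All 30 were above control 3 in it, by 0.12 to 0.58 on the log2 scale with a median of 0.37, where 48.8% of all tested genes were above control 3. In Wnt3a 1, 13 of the 30 were above and 17 below controls 1 and 2 (median -0.09). Ccne2, cyclin E2, had 182, 128 and 562 in controls 1 to 3 and 381 and 784 in Wnt3a 1 and 2. Rrm2, which supplies deoxynucleotides, had 1272, 680.1 and 1437 against 1788 and 2145. Bub1, a checkpoint kinase gene, had 382, 169.8 and 1147 against 713 and 1546. Control 1 was above control 2 in each and control 3 above both, so the controls differed among themselves by more than Wnt3a 2 did from control 3. None of the 30 passed limma, and Rrm2 was above all controls in both Wnt3a libraries.

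A few lists stayed within 2-fold, namely 30 of 30 respiratory chain genes, 30 of 30 cytosolic ribosomal protein genes and 21 of 21 genes of histone deacetylases and PRC2, in both Wnt3a libraries. Of the ribosomal protein genes, 29 of 30 were below controls 1 and 2 in Wnt3a 1 (median -0.30) and 23 of 30 were above control 3 in Wnt3a 2 (median 0.06). Rpl3, a protein of the large subunit, had 21576, 22594 and 17446 against 15034 and 18063. Ezh2, the methyltransferase of PRC2, had 689, 479.8 and 1083 against 789 and 1406. Among the 12 genes of highest mean, Eef1a1, an elongation factor gene, had 272647, 291461 and 245468 against 225853 and 261003. Fth1, the ferritin heavy chain, had 110386, 107232 and 83997 against 214360.0 and 73863, and Ahnak, a scaffold gene, had 56951, 53886 and 50064 against 162460.0 and 51743. Fth1 and Ahnak were well above all other libraries in Wnt3a 1.

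**Figure D5:**
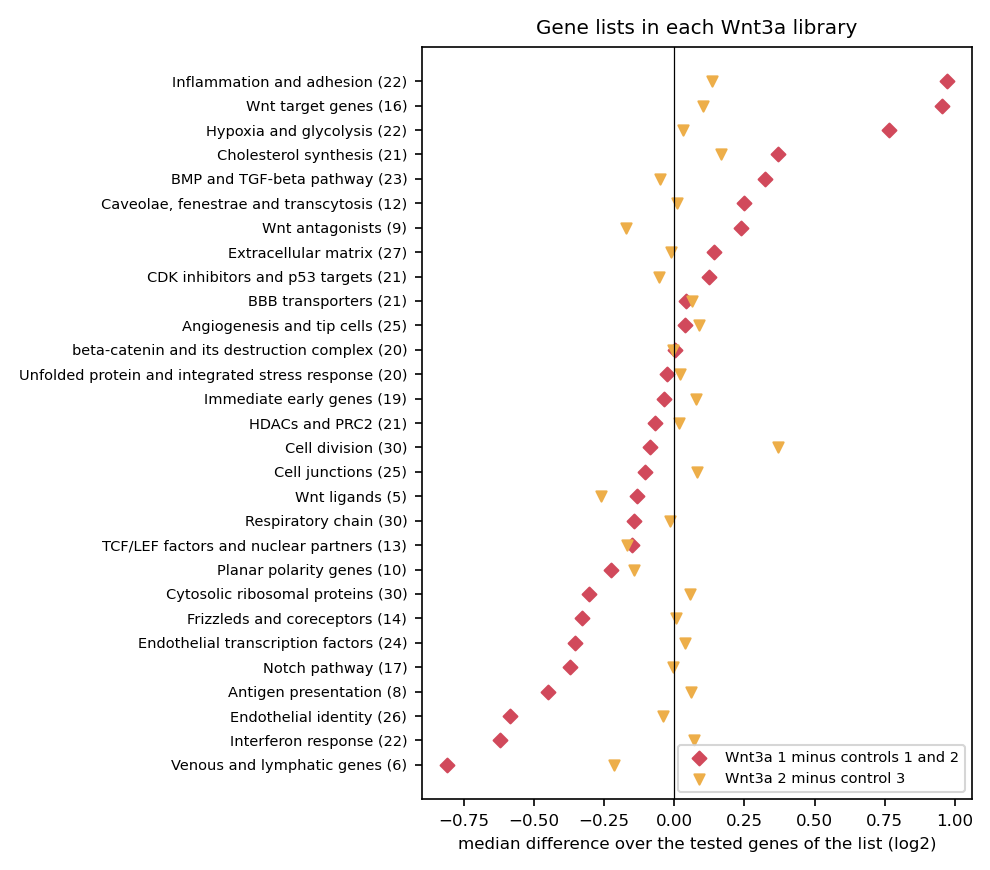
For each of the 29 function and Wnt lists with at least 5 tested genes (number in parentheses), the median difference over its genes on the log2 scale is shown for Wnt3a 1 (diamonds) and Wnt3a 2 (triangles). The diamonds run from -0.81 for venous and lymphatic genes to 0.97 for inflammation, 6 of them more than 0.5 from 0, and the triangles stay within 0.37 of 0.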

How the data were processed

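Poly(A) RNA of cultured cortical ECs was sequenced as read pairs on a NextSeq 550. Per the methods, reads were checked with FastQC, aligned to mm10 with STAR and counted over protein-coding genes of GENCODE by in-house scripts, and the submitters' processing notes also name cutadapt and featureCounts. No source used here gives the strand setting or tool versions. The deposited table holds a normalized signal per gene, the counts the authors divided by DESeq2 size factors over the 12 libraries. Its values returned whole reads (within 0.01 of a read) for 100% of entries. Of 21638 rows, 26 had names turned into dates and 1 lacked a value, and these were left out. The members and gene lists were chosen with earlier results of these data known.

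Genes with a value of at least 10 in at least 2 of the 5 libraries were compared on log2(value + 1) with limma 3.58.1 in R 4.3.3, as group means over all 12 libraries with robust moderation, with Benjamini-Hochberg adjustment over all tested genes. A fold change on this scale understates that of low genes. An exact permutation test of 2 against 3 libraries cannot go below 0.1 (one-sided). The quasi-likelihood test of edgeR 4.0.16 and DESeq2 1.42.0 were run on the recovered reads as alternatives, and the script was tested on simulated counts. Other pseudocounts, filters, scalings, thresholds and sets of libraries were tried, and each library was left out in turn. Where no gene passed, the text names the 6 genes of smallest p in each direction, all members of the Wnt lists where they have reads, the 4 tested members of smallest p in each function list, genes of the study's own Wnt and barrier question, and the 12 genes of highest mean. Coordinates are those of GENCODE on mm10. A few named genes are not reported here.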

Additional observations from a re-analysis of the deposited data

How the results depend on the processing

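The counts of genes at an adjusted p under 0.05, 0 higher and 0 lower, were also 0 with pseudocounts of 0.5 and 8, equal library totals, no filter or a filter at 50, limma without the robust option, the 5 or the 9 adult libraries alone, edgeR, limma or edgeR with the library side as a block, and with a minimum fold change added to the threshold. Quantile normalization gave 1 higher gene, Sema3b, with normalized values of 0 in the controls. DESeq2 gave 23 higher and 12 lower, and DESeq2 with the side as a block gave 78 and 41. An unadjusted p under 0.05 gave 610 and 480. Leaving out each library in turn gave 0 to 1014 higher and 0 to 592 lower genes, and the highest counts came without control 3. Whether the same replicate numbers pair the samples could not be told. The correlations of deviations were 0.596 for number 1 and -0.586 for number 2. As the deviations of the 2 Wnt3a libraries are mirror images, their correlations with each control are equal with opposite signs. With the replicate block limma called 0 genes higher and 0 lower.

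Of the 265 named genes with a test, 83 had a fold change of either sign over the settings, and no called value changed sign. DESeq2 called 35 of them, DESeq2 with the side as a block 46, limma without control 3 80 and without Wnt3a 2 47, and the other alternatives called none. The counts of Wnt3a 1 past 2-fold stayed within 1.5 times, for example 1101 higher with a pseudocount of 8 and 939 with a filter at 50, except without a filter, where Wnt3a 1 was above controls 1 and 2 in 2871 genes. For Wnt3a 2 against control 3, the higher and lower counts were 48 and 55 with a pseudocount of 8, 808 and 1112 without a filter, 39 and 32 with a filter at 50, and 285 and 353 after quantile normalization. For genes past 2-fold in both libraries they were 15 and 9, 271 and 136, 13 and 12, and 95 and 89 under the same 4 settings. The cause was not tested. Of the tested genes, 11023 reached a normalized count of 100 in some library, while the values of Axin2, Lef1, Sp5 and Wnt7b rest on a few reads each.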

Other observations

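Some genes marked the sides of the first component among the 5 libraries, and they were chosen for this after their values were seen. Over 2-fold between control 3 with Wnt3a 2 and each of the other 3 libraries, 559 genes were higher and 449 lower. Krt20, a keratin gene of epithelia, had 6.94, 10.2 and 3641 in controls 1 to 3 and 11.1 and 3567 in Wnt3a 1 and 2. Peg3, an imprinted gene, had 0, 0 and 166 against 0 and 150.4. Enah, an actin regulator, had 0, 2.03 and 474 against 0 and 413. Control 3 and Wnt3a 2 were alone in their high values. On the other side, Pir, an iron-binding nuclear protein gene, had 503, 478 and 0 in controls 1 to 3 and 665 and 0 in Wnt3a 1 and 2. Tnfsf9, a TNF family ligand gene, had 164, 185 and 0 against 343 and 0. Emp2, a membrane protein gene, had 50.3, 42.7 and 0 against 100.03 and 0. Each of these had no read in control 3 or Wnt3a 2.

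Genes that were extreme in Wnt3a 1 had these levels in the other groups of the series, given side by side and with no test. Kit had 8.53, 202, 19.5 and 207 in MS-275 1 to 4, and 543 to 718 in E13.5 ECs. Cd44 had 13113, 4453, 10721 and 4707 in MS-275 1 to 4, and 6677 to 10586 in E13.5 ECs. In both genes MS-275 1 and 3 were apart from MS-275 2 and 4, the same division as that of the adult libraries. Ism1 had 97.2, 92.9, 75.4 and 158 in MS-275 1 to 4, and 58.1 to 89.8 in E13.5 ECs, without that division. Ctnnb1 had 27408 to 31601 in the 4 MS-275 libraries and 19014 to 19842 in E13.5 ECs, against 20374 and 29749.5 in Wnt3a 1 and 2.

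Outside the lists, the genes that were highest in Wnt3a 1 against controls 1 and 2 included Serpinb9b, a protease inhibitor gene, with 619, 589 and 861 against 13691 and 938. Ifi209, an interferon-inducible gene, had 8.67, 8.13 and 35.5 against 697 and 26.3. Dock11, an activator of small GTPases, had 29.5, 14.2 and 7.89 against 596 and 4.78. Wnt3a 1 was above every other library in each, and Wnt3a 2 lay close to control 3.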
